A study of Mus musculus with 4 samples.

Results

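A set of 10 C-type lectin receptor genes of conventional dendritic cells (cDC) was followed through mouse spleen by single-cell RNA and surface antibody sequencing. The genes were Clec7a, Clec4n, Clec4a2, Clec4a4, Clec12a, Cd209a, Cd209d, Clec10a, Mgl2 and Cd207, and they were taken by their symbols out of 55385 genes in the count matrix. Every library came from wild-type (WT) C57BL6 mice in steady state, with no treatment and no second genotype. Dendritic cells of 2 WT mice were enriched by negative selection and stained with 160 barcoded antibodies and 9 isotype controls, then sorted into a mix of 50000 to 60000 cDC1, 10000 cDC2 and 10000 random live cells, where both cDC gates required cells without CD64. The mix was run as 2 replicates, each giving an RNA library and an antibody library. The labels do not say whether each replicate is its own mouse. The p-values below therefore speak only of how differences between classes vary from library to library, pooled over the classes. That variation may be technical. The sort set the share of each cell type, and no share of cell types is read from it.

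C-type lectin receptors bind glycans, and on myeloid cells they recognise fungi, bacteria, dying cells and self glycoproteins. Clec7a (Dectin-1) binds fungal beta-glucan and signals through its own hemITAM to Syk and Card9, whereas Clec4n (Dectin-2) binds mannans and signals through the Fc receptor gamma chain encoded by Fcer1g. Clec4a2 (DCIR1), Clec4a4 (DCIR2, the antigen of the 33D1 antibody that marks splenic cDC2) and Clec12a (MICL, CD371) carry inhibitory ITIM motifs. Cd209a and Cd209d are mouse homologues of human DC-SIGN, Clec10a (MGL1, CD301a) and Mgl2 (CD301b) are galactose-type lectins, and Cd207 (langerin) forms Birbeck granules in Langerhans cells.

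The genes lie in clusters on 3 chromosomes of the GRCm38.p6 (mm10) build. On chromosome 6 are Cd207 (ENSMUSG00000034783, chr6:83671207-83677857), Clec4a4 (ENSMUSG00000059639, chr6:122990367-123024421), Clec4a2 (ENSMUSG00000030148, chr6:123122690-123143999), Clec4n (ENSMUSG00000023349, chr6:123229843-123247024), Clec12a (ENSMUSG00000053063, chr6:129349783-129365303) and Clec7a (ENSMUSG00000079293, chr6:129461591-129472785). Chromosome 8 holds Cd209a (ENSMUSG00000031494, chr8:3743395-3748984) and Cd209d (ENSMUSG00000031495, chr8:3871824-3878548), and chromosome 11 holds Mgl2 (ENSMUSG00000040950, chr11:70130125-70137542) and Clec10a (ENSMUSG00000000318, chr11:70166623-70170836). Clec4a4 and Clec4a2 are 98.3 kb apart, Clec12a and Clec7a 96.3 kb, Cd209a and Cd209d 122.8 kb, and Mgl2 and Clec10a 29.1 kb. Clec4a2 and Clec4a4, Cd209a and Cd209d, and Clec10a and Mgl2 are close paralogues, so reads that match both copies make the split of counts within each pair uncertain.

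The 3 promoters shown are those that hold an ETS-IRF composite motif, chosen for that match, and they belong to Clec7a, whose maturity effect differs between the lineages below, and to the Cd209 pair, which cDC2 share with plasmacytoid dendritic cells (pDC). Each is the RefSeq stretch from 250 bases before to 50 bases after the gene's start on GRCm38.p6, printed 5′ to 3′ on the gene's strand. The stretches are chr6:129472730-129473029 for Clec7a, chr8:3748935-3749234 for Cd209a and chr8:3878450-3878749 for Cd209d, all on the minus strand. Capitals mark matches, on either strand, to the PU.1 core AGGAAG and to the ETS-IRF composite, which is GGAA, any 2 bases and GAAA.
Clec7a promoter: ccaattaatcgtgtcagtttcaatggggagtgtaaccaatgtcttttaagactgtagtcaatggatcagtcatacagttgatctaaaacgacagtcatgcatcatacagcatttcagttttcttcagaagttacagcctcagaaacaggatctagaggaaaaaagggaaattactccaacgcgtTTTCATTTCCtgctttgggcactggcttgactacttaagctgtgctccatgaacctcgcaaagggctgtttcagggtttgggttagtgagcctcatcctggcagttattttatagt
Cd209a promoter: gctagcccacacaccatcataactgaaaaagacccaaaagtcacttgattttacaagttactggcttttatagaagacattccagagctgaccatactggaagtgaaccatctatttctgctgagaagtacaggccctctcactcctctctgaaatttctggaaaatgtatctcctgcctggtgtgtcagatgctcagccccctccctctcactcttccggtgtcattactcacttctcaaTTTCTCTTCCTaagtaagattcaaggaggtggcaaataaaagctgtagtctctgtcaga
Cd209d promoter: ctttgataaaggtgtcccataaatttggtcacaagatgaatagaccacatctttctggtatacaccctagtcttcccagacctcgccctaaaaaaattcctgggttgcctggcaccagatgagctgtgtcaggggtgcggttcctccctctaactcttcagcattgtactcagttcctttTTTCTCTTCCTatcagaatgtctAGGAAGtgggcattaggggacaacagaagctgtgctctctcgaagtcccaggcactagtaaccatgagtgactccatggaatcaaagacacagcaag
The composite motif is present in these 3 stretches, which were chosen for it from the 7 genes with a promoter. Across 32851 RefSeq promoters of the same length it is in 2.72% (892 promoters). In Cd209a and Cd209d the same 11 letters, TTTCTCTTCCT, hold the composite and an overlapping PU.1 core, and Cd209d has a further PU.1 core. The PU.1 core alone is in 35.4% of all promoters. Among the 7 genes with a promoter in the RefSeq table, Cd207, Clec4a2, Clec12a and Mgl2 have no composite match, and Clec4a4, Clec4n and Clec10a are named only. A match describes letters and is not a binding site.

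The proteins of 4 of the 10 genes were also read by antibodies, which gave a readout independent of the RNA. Their 15-base barcodes, printed in capitals throughout, were as follows.
CD371 (Clec12a): GCGAGAAATCTGCAT
CD301a (Clec10a): TGTATTTACTCACCG
CD301b (Mgl2): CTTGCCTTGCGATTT
CD207_mh (Cd207): CGATTTGTATTCCCT

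After filtering, 28142 of 31790 cell barcodes remained, 12166 in library 1 and 15976 in library 2. The RNA libraries held 99617992 and 129565040 unique molecular identifiers (UMIs), and 61 barcode sequences occurred in both libraries. Cells were placed by surface XCR1 against CD172a (cDC1 or cDC2) and by Ccr7 and Fscn1 UMIs (immature with neither, intermediate with at least 3 Ccr7 and under 3 Fscn1, mature with at least 3 of both). Immature cDC2 numbered 1142 and 1259 cells in libraries 1 and 2, immature cDC1 4567 and 6991, mature cDC2 73 and 66, and mature cDC1 82 and 110. Median UMIs per cell were 3887.5 and 3789 in immature cDC2, 9178 and 8129 in immature cDC1, 3784 and 3306.5 in mature cDC2, and 6091.5 and 6147 in mature cDC1, so shares of cells with a UMI are given after thinning each cell to 3000 UMIs unless stated. Levels are CPM, UMIs of a gene scaled to the total of a class in a library. These are 3′ tags, and levels are compared between classes and not between genes.

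The classes matched their labels on marker genes. All 8 cDC1 markers were higher in cDC1 in both libraries at both stages, 7 of 8 cDC2 markers were higher in cDC2 (the exception was Mpeg1), and all 8 maturity markers were higher in the mature cells of both lineages. T cells, which should lack these receptors, had a median of 2928 and 2688 UMIs and served as the background for free RNA. In them the unthinned share with a UMI was 0.983% and 0.840% for Clec7a, 2.11% and 1.68% for Clec12a, 0.562% and 0.168% for Cd209a, and 0.421% and 0.336% for Cd207. The other 6 genes were in at most 0.168% of T cells. The first pDC and monocyte gates let in cells with surface XCR1 and raised cDC1 markers (8 of 8 above immature cDC2). Levels of those classes are therefore given from stricter gates, chosen after the data were seen, with 76 and 77 pDC and 33 and 43 monocytes. The first gates had held 106 and 113 pDC and 275 and 322 monocytes. The stricter pDC gate asked for at least 20 CD317 antibody UMIs. The stricter monocyte gate asked for MHC class II RNA under 20 UMIs and for CD172a over XCR1, as in cDC2. Shallow cells meet that RNA limit more easily.

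Immature cDC2 and immature cDC1 differed in the level of every receptor tested. Of 9 genes tested, all 9 passed edgeR's quasi-likelihood test with Benjamini-Hochberg adjustment over all genes, 7 higher and 2 lower in cDC2. Across the 8976 genes tested, 52.1% passed in either direction, 25.9% higher and 26.2% lower in cDC2, so that a call by itself is common here. Mgl2 had too few counts to enter the test.

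Among the activating receptors, Clec7a had 369 and 444 CPM in immature cDC2 of libraries 1 and 2, against 12.4 and 14.5 CPM in immature cDC1. Every cDC2 value lay above every cDC1 value, with a log2 fold change of 4.80 (SE 0.13, edgeR adjusted p 1.3e-20). At 3000 UMIs per cell, 39.9% and 43.9% of immature cDC2 had a Clec7a UMI, against 3.21% and 3.66% of immature cDC1 and 0.587% and 0.840% of T cells. Clec4n was sparser, at 25.7 and 20.4 CPM in immature cDC2 against 0.444 and 0.891 CPM in immature cDC1 (log2 fold change 4.89, SE 0.25). Both activating receptors were thus higher in cDC2.

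The inhibitory receptors split. Clec4a2 had 125 and 119.9 CPM in immature cDC2, against 1.35 and 1.395 CPM in immature cDC1 (log2 fold change 6.34, SE 0.13). Clec4a4 had 33.2 and 37.7 CPM in immature cDC2, against 0.164 and 0.101 CPM in immature cDC1, and its log2 fold change of 7.84 (SE 0.23) was the largest of the 9. Clec12a ran the other way. It had 59.7 and 74.2 CPM in immature cDC2, against 143 and 136 CPM in immature cDC1 (log2 fold change -1.17, SE 0.11, edgeR adjusted p 7.5e-10). At equal depth a Clec12a UMI was found in 12.97% and 15.2% of immature cDC2, against 34.8% and 33.3% of immature cDC1 and 2.35% and 1.68% of T cells.

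The DC-SIGN homologues and galactose-type lectins were much higher on the cDC2 side of this comparison. Cd209a had 248 and 206 CPM in immature cDC2, against 1.38 and 1.06 CPM in immature cDC1 (log2 fold change 7.41, SE 0.15). Cd209d had 11.1 and 19.1 CPM in immature cDC2, against 0.257 and 0.151 CPM in immature cDC1 (log2 fold change 6.06, SE 0.34). Clec10a had 29.95 and 17.4 CPM in immature cDC2, against 1.14 and 1.34 CPM in immature cDC1 (log2 fold change 4.09, SE 0.29). In immature cDC1 the thinned share with a Cd209a UMI, 0.462% and 0.275%, was near that of T cells, 0.587% and 0%. Mgl2 had 3.04 and 2.60 CPM in immature cDC2 and 0.187 and 0.286 CPM in immature cDC1, and was not tested.

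Cd207 was the second receptor that was higher in cDC1. It had 3.85 and 1.30 CPM in immature cDC2, against 34.1 and 18.3 CPM in immature cDC1 (log2 fold change -3.48, SE 0.24, edgeR adjusted p 4.0e-12). The libraries differed within cDC1, where the unthinned share with a Cd207 UMI was 15.2% and 9.38%. In immature cDC2 that share, 0.788% and 0.318%, was close to the T-cell background of 0.421% and 0.336%, and 1 cell held 57.9% and 57.1% of the cDC2 counts in libraries 1 and 2.

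**Figure D1:**
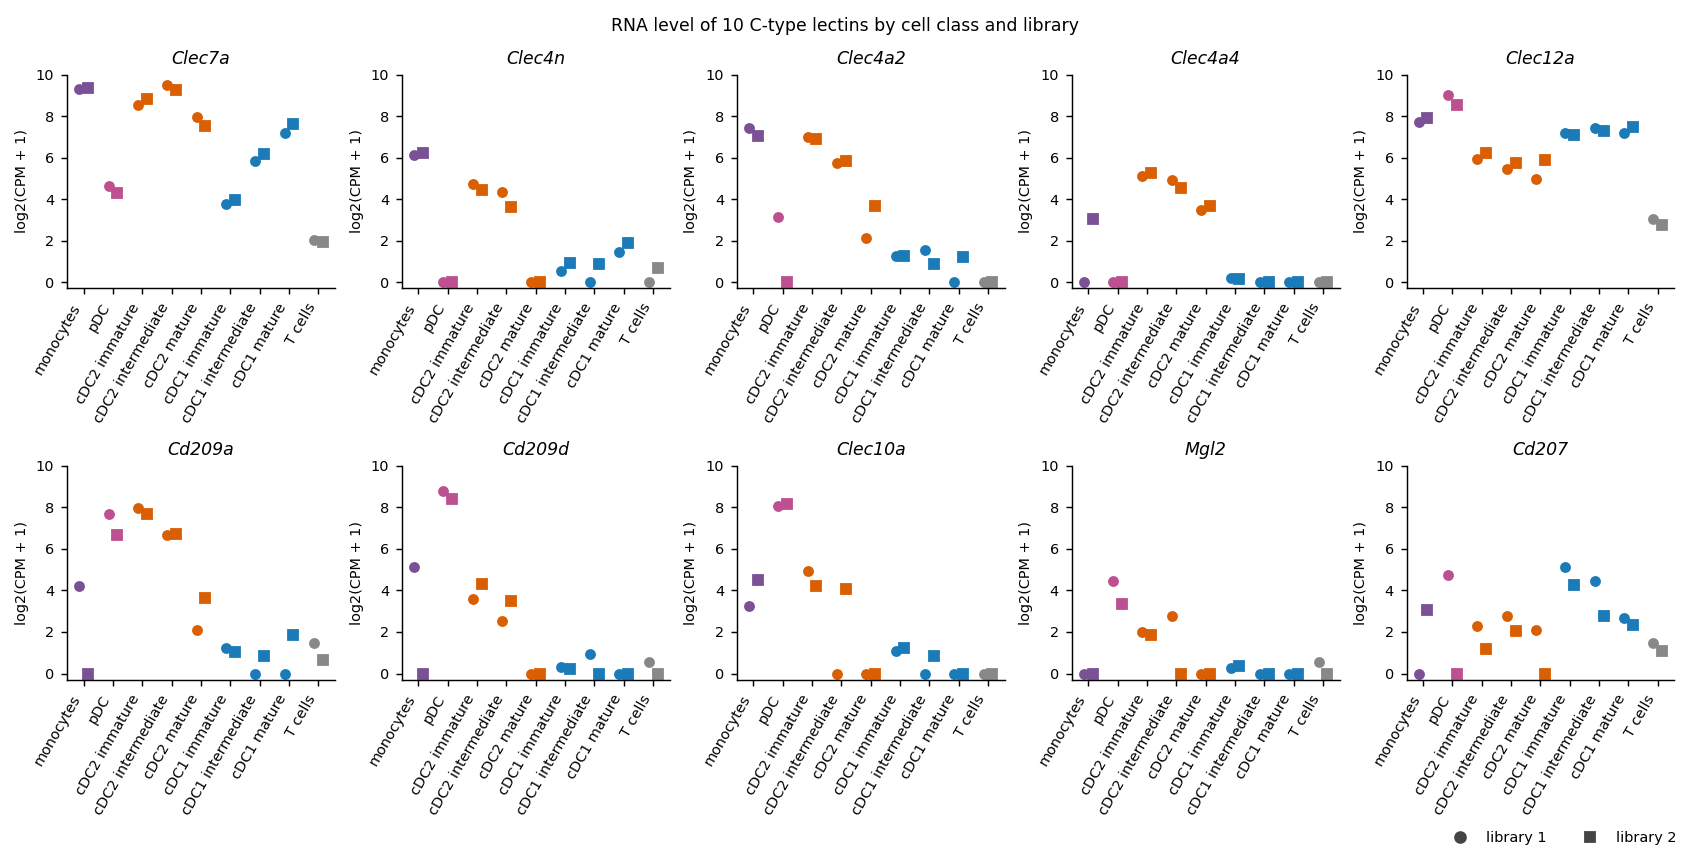
Level of each of the 10 receptors, as log2(CPM + 1), by cell class, with 1 point per library (circle, library 1; square, library 2) and pDC and monocytes from the stricter gates. Clec12a and Cd207 are the 2 panels in which immature cDC1 lie above immature cDC2, while Cd209d and Clec10a are highest in pDC.

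Surface protein gave the same directions as RNA for the 4 receptors read by antibody. In this comparison 68 of 170 antibodies passed the edgeR test (40%). CD371 gave 2.12 and 2.02 antibody UMIs per cell in immature cDC2, against 10.8 and 8.55 in immature cDC1 (log2 fold change -1.63, SE 0.18, edgeR adjusted p 1.5e-06). CD301a gave 5.03 and 3.76 UMIs per cell in immature cDC2, against 0.285 and 0.248 in immature cDC1 (log2 fold change 4.61, SE 0.45). CD207 gave 0.179 and 0.151 UMIs per cell in immature cDC2, against 1.02 and 0.698 in immature cDC1 (log2 fold change -1.77, SE 0.31). CD301b gave 0.287 and 0.344 UMIs per cell in immature cDC2, against 0.0952 and 0.0947 in immature cDC1 (log2 fold change 2.33, SE 0.73, edgeR adjusted p 0.0198), and did not pass without the replicate block (edgeR adjusted p 0.069) or in DESeq2 (adjusted p 0.0941). The highest isotype control stood at 0.223 and 0.241 UMIs per cell in immature cDC2, just under CD301b, and at 0.320 and 0.745 in immature cDC1, so the CD207 signal of library 2 did not exceed it.

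Other C-type lectins and signalling genes differed between the lineages too. Of 32 other lectins on the list 13 were tested, and 9 were higher and 4 lower in immature cDC2, with a median log2 fold change of 2.92 against -0.01 over all genes, of which 52.1% passed. Clec4a1 (log2 fold change 7.39, SE 0.15), Clec4a3 (7.11, SE 0.19) and Clec4b1 (5.43, SE 0.19), neighbours of the Clec4a family, and Cd72 (5.86, SE 0.17), an inhibitory receptor best known from B cells, changed most. All 21 signalling genes were tested, and 12 were higher and 5 lower, with a median of 0.57. The Fc receptor gamma chain gene Fcer1g, the partner of Clec4n, was higher by 4.73 (SE 0.15), Malt1 by 2.26 (SE 0.10), the phosphatase gene Ptpn6, which ITIM receptors recruit, by 1.93 (SE 0.10) and Syk by 1.61 (SE 0.10), all as log2 fold changes. Clec4a1 and Clec4a3 are paralogues of Clec4a2 and carry the same uncertainty.

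Clec7a differed with maturity in opposite directions in the 2 lineages. In cDC1, Clec7a had 12.4 and 14.5 CPM in immature, 56.0 and 70.0 CPM in intermediate and 145 and 192 CPM in mature cells, higher at each step in both libraries. In cDC2 it had 369 and 444 CPM in immature, 714 and 603 CPM in intermediate and 243 and 181 CPM in mature cells. The cDC2 values were thus highest at the intermediate stage and lowest at the mature stage in each library. No contrast with the intermediate stage was tested.

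Between mature and immature cDC1, 3 of 9 tested genes passed the edgeR test, against 49.1% of all genes. Clec7a was higher in mature cDC1 with a log2 fold change of 3.87 (SE 0.18, edgeR adjusted p 1.1e-15). The thinned share with a Clec7a UMI was 22.2% and 28.7% in mature cDC1, against 3.21% and 3.66% in immature cDC1. Cd207 had 5.29 and 3.97 CPM in mature cDC1, from 3 UMIs in each library, against 34.1 and 18.3 CPM in immature cDC1. Its log2 fold change was -2.23 (SE 0.51, edgeR adjusted p 8.1e-04), and with at least 6 XCR1 and CD172a UMIs per cell it was -1.61 with an edgeR adjusted p of 0.0556. No thinned mature cDC1 had a Cd207 UMI, with exact 95% upper bounds of 4.45% and 3.59%.

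Clec12a differed little between mature and immature cDC1, and its call depended on the settings. It had 145 and 176 CPM in mature cDC1, against 143 and 136 CPM in immature cDC1, and the log2 fold change of 0.43 (SE 0.14, edgeR adjusted p 0.0129) did not pass with a 4-fold lineage gate (edgeR adjusted p 0.154), thinned cells (0.11), library totals (0.223) or no low-count filter (0.262). The remaining 6 tested genes had at most 3 UMIs over both mature cDC1 libraries, and no fold is given for them. Surface CD371 stood at 8.55 and 8.32 UMIs per cell in mature cDC1 and 10.8 and 8.55 in immature cDC1. CD207 protein was 1.02 and 0.698 UMIs per cell in immature, 2.35 and 1.21 in intermediate and 0.854 and 1.07 in mature cDC1, and these surface values were not tested. Macrophage markers moved with maturity here, at a summed 208 and 187 CPM in mature cDC1 against 36.8 and 39.98 CPM in immature cDC1 (2 of 4 markers higher in both libraries), and their part in the result was not tested. The cDC2 marker list summed to 619 and 827 CPM in mature cDC1, against 838 and 917 CPM in immature cDC1. Even so, 5 of its 8 markers were higher in mature cDC1 in both libraries, and their part was not tested.

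**Figure D2:**
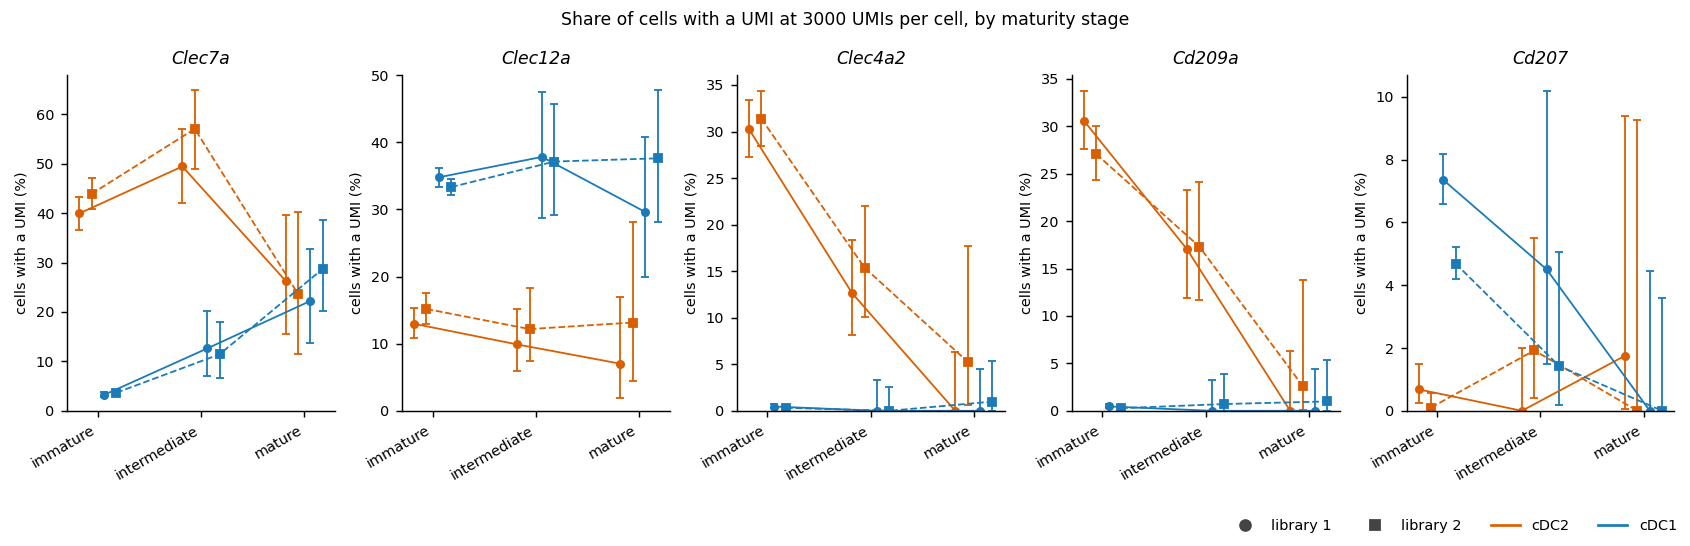
Percent of cells with at least 1 UMI of Clec7a, Clec12a, Clec4a2, Cd209a and Cd207 at 3000 UMIs per cell, by stage, in cDC2 (orange) and cDC1 (blue), with library 1 as circles, library 2 as squares and bars for exact 95% binomial intervals that cover counting error only. Clec7a climbs with stage in cDC1 and is lowest in mature cells in cDC2, where Clec4a2 and Cd209a also fall.

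Mature cDC2 carried little of most receptors that set immature cDC2 apart. Of 9 tested genes 7 were lower in mature cDC2, against 11.4% of all genes lower and 25.5% changed in either direction. The count was 4 with a 4-fold lineage gate, 4 with at least 6 XCR1 and CD172a UMIs and 3 in thinned cells, and Clec7a, Cd209a and Clec4a2 passed under every alternative with a test. Cd209a had 3.33 and 11.5 CPM in mature cDC2, against 248 and 206 CPM in immature cDC2 (log2 fold change -4.83, SE 0.42, edgeR adjusted p 1.5e-09). Clec4a2 had 3.33 and 11.5 CPM in mature cDC2, against 125 and 119.9 CPM in immature cDC2 (log2 fold change -3.94, SE 0.43, edgeR adjusted p 9.1e-08). For both genes the mature value rests on 4 UMIs over the libraries. The intermediate values, 101 and 104 CPM for Cd209a and 52.8 and 56.3 CPM for Clec4a2, lay between the 2 stages.

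Clec4n, Cd209d, Clec10a and Mgl2 had 0 UMIs in mature cDC2. Against a floor of 3 counts over the group, Clec4n was at least 4.28-fold lower, Cd209d at least 2.86-fold lower and Clec10a at least 4.37-fold lower than in immature cDC2, and the immature level of Mgl2 was itself under that floor. The calls of Cd209d and Clec10a (edgeR adjusted p 0.0342 and 0.0301) were each lost under 4 alternatives, with adjusted p from 0.0522 to 0.259, and that of Clec4n in thinned cells (0.0565). Clec7a fell less, to 243 and 181 CPM in mature cDC2 against 369 and 444 CPM in immature cDC2 (log2 fold change -0.76, SE 0.18, edgeR adjusted p 0.0019), and was -0.38 from library 1 alone and -1.24 from library 2 alone. Clec4a4 had 10.0 and 11.5 CPM in mature cDC2, against 33.2 and 37.7 CPM in immature cDC2. Its log2 fold change of -1.56 (SE 0.51, edgeR adjusted p 0.0253) rested on 6 UMIs and did not pass under 4 alternatives, which gave adjusted p between 0.0538 and 0.338.

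Clec12a and Cd207 did not pass in cDC2. Clec12a had 30 and 57.7 CPM in mature cDC2, against 59.7 and 74.2 CPM in immature cDC2 (log2 fold change -0.48, SE 0.31, edgeR adjusted p 0.281), from 9 and 15 UMIs. Cd207 had 1 UMI in mature cDC2. Surface CD371 averaged 2.33 and 1.62 UMIs per cell in mature cDC2, against 2.12 and 2.02 in immature cDC2. CD301a averaged 7 and 2.09 UMIs per cell in mature cDC2, where no Clec10a UMI was found, with 1 cell holding 21.5% and 29.0% of those antibody UMIs, and 5.57 and 1.51 without that cell.

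The difference between the 2 maturity effects was tested as an interaction, in which 2 of 9 tested genes and 7.19% of all genes passed. Only Clec7a and Clec12a had more than 3 UMIs in every class of this contrast, so most of the 9 could hardly be judged. For Clec7a the effect in cDC2 minus that in cDC1 was -4.63 on the log2 scale (SE 0.24, edgeR adjusted p 3.5e-13), with a range of -5.34 to -4.03 over all alternatives. Clec4n also passed (edgeR adjusted p 0.0370), with 0 UMIs in mature cDC2 and 3 in mature cDC1, so that no size can be given. This call was lost under 4 alternatives, with edgeR adjusted p of 0.117 with a 4-fold lineage gate, 0.0813 with at least 6 XCR1 and CD172a UMIs, 0.241 thinned and 0.143 with 6 Ccr7 and 6 Fscn1 UMIs. For Clec12a the interaction was -0.91 (SE 0.33, edgeR adjusted p 0.107) and did not pass.

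Mature cDC2 and mature cDC1 were nearer to each other than the immature cells in Clec7a. It had 243 and 181 CPM in mature cDC2, against 145 and 192 CPM in mature cDC1, and the ranges overlapped (log2 fold change 0.17, SE 0.21, edgeR adjusted p 0.714). The value was -0.28 from library 2 alone and passed with doublets kept (edgeR adjusted p 0.0278). In this contrast 2 of 9 tested genes and 11.5% of all genes passed, and only Clec7a and Clec12a had more than 3 UMIs in both classes. Clec12a remained lower in mature cDC2, at 30 and 57.7 CPM against 145 and 176 CPM in mature cDC1 (log2 fold change -2.09, SE 0.29, edgeR adjusted p 9.9e-06). Clec4a4 was the other, with 6 UMIs in mature cDC2 and 0 in mature cDC1, too few for a fold. Its call was lost under 3 alternatives (edgeR adjusted p 0.0795 to 0.419).

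Signalling partners of these receptors still differed between the mature lineages. Fcer1g had 1173 and 827 CPM in mature cDC2, against 49.4 and 53.0 CPM in mature cDC1 (log2 fold change 4.12, SE 0.23). Syk, the kinase downstream of Clec7a, was higher by 2.19 (SE 0.33) in mature cDC2 and Malt1 by 1.36 (SE 0.14), and in all 6 of 21 signalling genes were higher and 0 lower there, with a median of 0.06 against -0.03 over all genes, of which 11.5% passed. Of the other lectins, 4 of 13 were higher and 1 lower in mature than in immature cDC1 (median 0.80), a smaller share than the 49.1% of all genes that passed there, and among them were Clec2i (log2 fold change 5.89, SE 0.24), Clec2d (2.97, SE 0.12) and the endocytic receptor gene Ly75 (2.82, SE 0.14), the gene of DEC-205. In mature against immature cDC2, 4 were higher and 5 lower (median -0.49), where 25.5% of all genes passed. Ly75 was again higher (3.94, SE 0.28) and Clec4a1 lower (-2.24, SE 0.35), while Clec4b1 had 0 UMIs in mature cDC2. Ly75 had 133 and 135 CPM in mature cDC2 and 217 and 241 CPM in mature cDC1.

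Within immature cDC2, cells with a Cd209a UMI had more RNA of several other receptors. There were 384 and 374 Cd209a-positive and 758 and 885 Cd209a-negative cells, with median depths of 4077.5 and 3910 UMIs in the positive and 3772.5 and 3699 UMIs in the negative cells. Cd209a made the split, at 736 and 699 CPM in the positive cells, and is not tested. Of the 9 other receptors, 5 were higher in Cd209a-positive cells and 0 lower, against 3.27% of 9202 genes higher and 4.69% changed in either direction. The 5 include Mgl2, which entered the test only through this split.

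Clec7a had 554 and 738 CPM in Cd209a-positive cells, against 275 and 321 CPM in Cd209a-negative cells (log2 fold change 1.22, SE 0.12, edgeR adjusted p 4.7e-08). At equal depth, 53.3% and 61.9% of Cd209a-positive cells had a Clec7a UMI, against 32.4% and 35.5% of Cd209a-negative cells and 0.587% and 0.840% of T cells. Clec12a had 83.7 and 101 CPM in Cd209a-positive cells, against 47.6 and 63.2 CPM in Cd209a-negative cells (log2 fold change 0.83, SE 0.15, edgeR adjusted p 8.4e-04). For both genes each positive value exceeded each negative value. All 4 Clec12a values lay under those of immature cDC1, 143 and 136 CPM.

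Clec10a, Mgl2 and Cd209d were low in Cd209a-negative cells. Clec10a had 85.5 and 47.8 CPM in Cd209a-positive cells, against 1.83 and 4.74 CPM in Cd209a-negative cells (log2 fold change 4.402, SE 0.40), and the value was 5.63 from library 1 alone and 3.44 from library 2 alone. Mgl2 had 9.03 and 7.55 CPM in Cd209a-positive cells, where 1 cell held 46.7% and 33.3% of its UMIs in libraries 1 and 2. All Cd209a-negative cells had 2 Mgl2 UMIs, too few for a fold. Mgl2 had enough counts for a test only once the split made a class where it is high. Its call (edgeR adjusted p 0.0023) is therefore no support. Cd209d had 25.3 and 63.5 CPM in Cd209a-positive cells, against 3.96 and 0.527 CPM in Cd209a-negative cells (log2 fold change 4.47, SE 0.48). Its size depended on the library, at 2.77 from library 1 alone and 6.98 from library 2 alone.

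The Cd209d signal of the Cd209a-positive cells came from few cells. A Cd209d UMI was present in 16 and 15 of them, which held 42 and 101 UMIs, and the 5 highest cells held 23 and 77. These cells also differed from the rest in some pDC-associated genes. Surface CD317, the product of Bst2, gave 6.06 and 5.73 UMIs per cell in cells with Cd209d, against 0.967 and 1.42 in those without. Bst2 had 515 and 519 CPM in cells with Cd209d against 143 and 176 CPM without, and Tcf4, a transcription factor gene of the pDC lineage, 187 and 309 CPM against 69.2 and 68.3 CPM. Siglech, a defining pDC gene that is also in the pDC gate, had 0 and 24.7 CPM in cells with Cd209d against 2.54 and 0.663 CPM without, so that it was higher with Cd209d in library 2 alone. Whether pDC-like cells account for the Cd209d difference was not tested. Clec10a stood at 80.6 and 45.1 CPM in Cd209a-positive cells without Cd209d, so its level did not rest on those cells.

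The other receptors did not pass this split with the settings used here. Clec4a2 had 132 and 147 CPM in Cd209a-positive cells and 122 and 109 CPM in Cd209a-negative cells (log2 fold change 0.38, SE 0.12, edgeR adjusted p 0.0785), and passed with positive cells at 2 or more Cd209a UMIs (0.52, edgeR adjusted p 0.0126) and with doublets kept (0.0297). Clec4n had 29.5 and 26.4 CPM in positive and 23.8 and 17.9 CPM in negative cells (log2 fold change 0.54, SE 0.25, edgeR adjusted p 0.276). Clec4a4, the 33D1 antigen gene, had 28.9 and 35.2 CPM in positive and 35.4 and 38.7 CPM in negative cells (log2 fold change -0.11, SE 0.19). Cd207 gave -0.88 (SE 0.75).

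**Figure D3:**
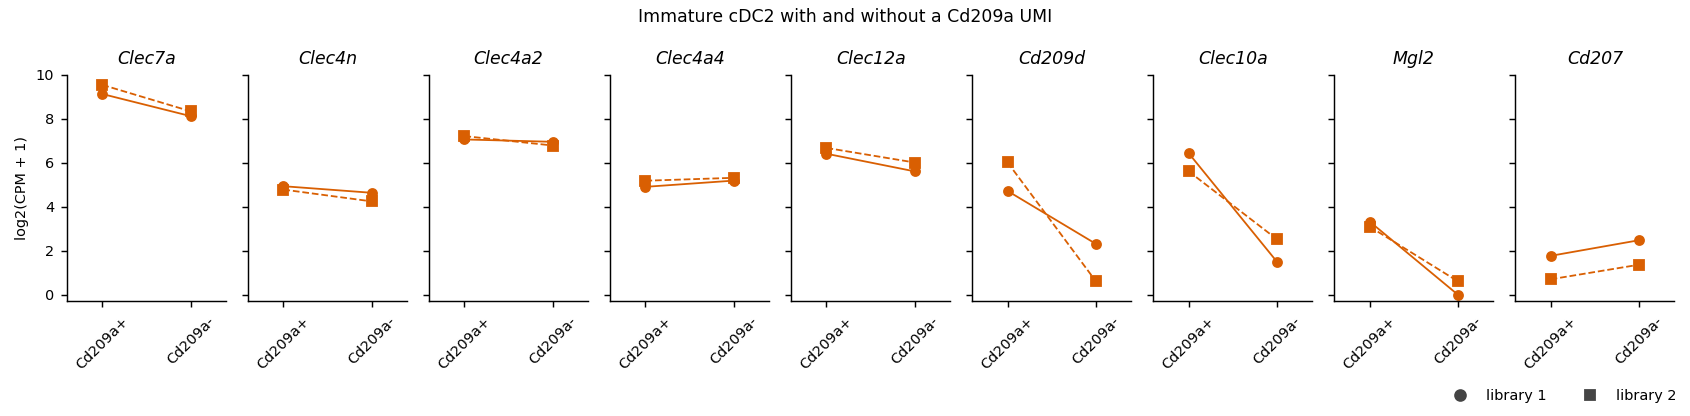
Levels of 9 receptors, as log2(CPM + 1), in Cd209a-positive and Cd209a-negative immature cDC2, with 1 point per library (circle, library 1; square, library 2). Clec7a, Clec12a, Clec10a, Cd209d and Mgl2 lie higher in the Cd209a-positive cells in both libraries, while the Clec4a4 values of the 2 kinds of cell lie close together.

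Surface protein followed the Clec10a split. CD301a gave 12.5 and 9.32 UMIs per cell in Cd209a-positive cells, against 1.23 and 1.42 in Cd209a-negative cells (log2 fold change 2.93, SE 0.42, edgeR adjusted p 5.9e-04), in a comparison where 10 of 172 antibodies passed (5.81%), 3 to 5 under 5 alternatives and 23 with positive cells at 2 or more Cd209a UMIs. Among the other antibodies that passed, the chemokine receptor CX3CR1 was higher by 1.73 (SE 0.21), CD300LG by 1.34 (SE 0.26), CD317 by 0.78 (SE 0.14) and CD11b by 0.70 (SE 0.18), and ESAM, a marker of one splenic cDC2 subset, was lower at -0.78 (SE 0.14). The highest isotype control was at 0.247 and 0.267 UMIs per cell in Cd209a-positive cells and 0.211 and 0.229 in Cd209a-negative cells. CX3CR1 gave 0.375 and 0.420 UMIs per cell in Cd209a-positive cells and 0.119 and 0.106 in Cd209a-negative cells, and CD300LG gave 0.523 and 0.297 in positive and 0.146 and 0.148 in negative cells. Both were under the isotype in the negative cells, and CD300LG of library 2 was barely above it in the positive cells. CD301b (log2 fold change 2.22, SE 0.81, edgeR adjusted p 0.112), CD371 (0.41, SE 0.14, edgeR adjusted p 0.0974) and CD207 (-0.25, SE 0.33) did not pass. With positive cells at 2 or more Cd209a UMIs, CD301b (edgeR adjusted p 0.024) and CD371 (0.00873) passed, and CD301b also when scaled to isotype UMIs (0.014).

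RNA and protein of Clec10a were found in the same cells. Among Cd209a-positive cells, those with a Clec10a UMI averaged 58.8 and 40.1 CD301a UMIs (50 and 33 cells), against 5.60 and 6.34 in those without, and 94.0% and 93.9% of the cells with a Clec10a UMI had 5 or more CD301a UMIs, against 20.1% and 23.5%. Median depths were 4712 and 4785 UMIs with, and 3913 and 3885 without, a Clec10a UMI. The median CD301a count was 32.5 and 32 with a Clec10a UMI and 0 without. The protein thus marked a minority of the Cd209a-positive cells, larger than the minority with a Clec10a UMI.

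**Figure D4:**
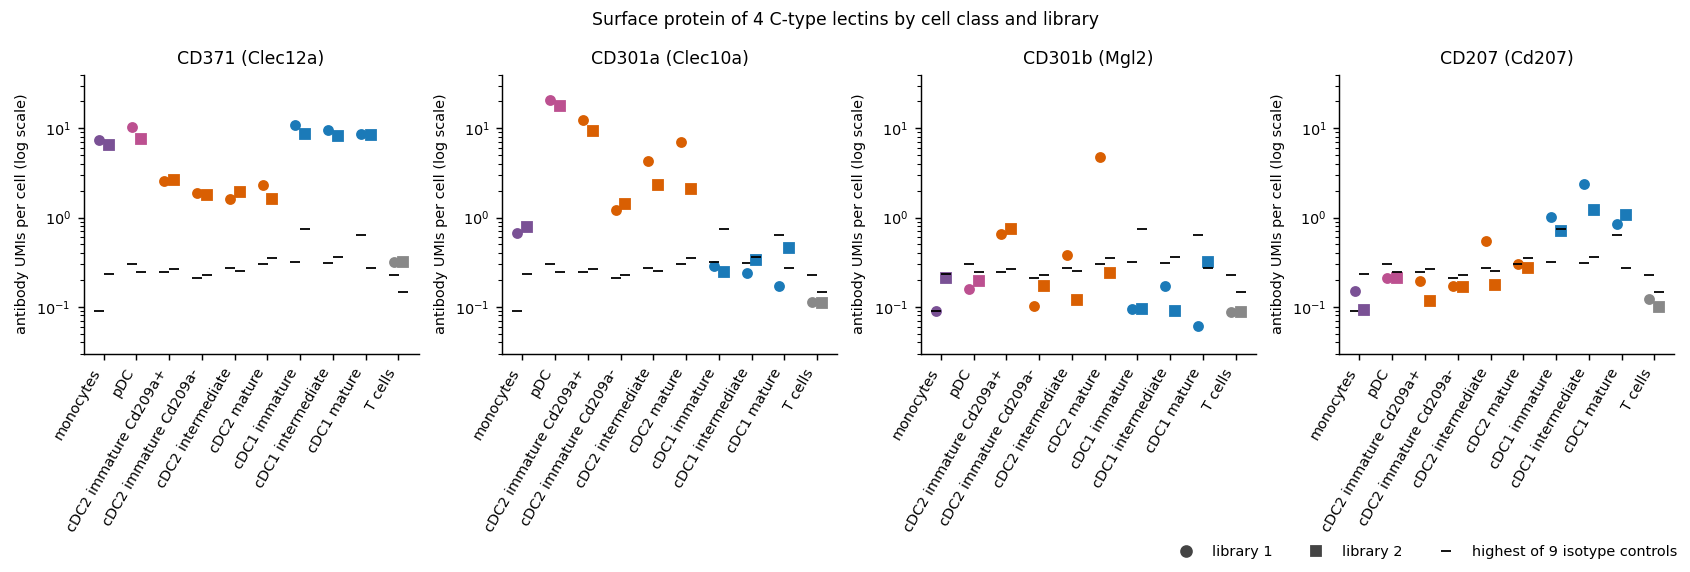
Antibody UMIs per cell (log scale) for CD371, CD301a, CD301b and CD207 by cell class and library, with dashes at the highest of the 9 isotype controls in that class and library. CD371 is high in cDC1, pDC and monocytes, and CD301a in pDC and Cd209a-positive cDC2, while the high CD301b point of mature cDC2 in library 1 has 41.7% of its UMIs in 1 cell.

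Among other genes in the split, 5 of 13 tested lectins and 3 of 21 signalling genes were higher in Cd209a-positive cells and 0 of either list lower, with medians of 0.25 and 0.09 against 0.00 over all genes, of which 4.69% passed. Clec4b1 (log2 fold change 2.37, SE 0.20) and Clec4a3 (1.74, SE 0.16) led the lectins. Fcer1g was higher by 0.75 (SE 0.13) and Tyrobp, which encodes the ITAM adaptor DAP12, by 0.47 (SE 0.09).

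Plasmacytoid dendritic cells shared part of the lectin set of cDC2 at other levels. All 9 tested genes passed against immature cDC2, 4 higher and 5 lower, both with the first gate (26.1% of all genes, 13.4% higher and 12.7% lower) and with the stricter gate (27.8%). In the stricter gate Cd209d had 444 and 344 CPM in pDC, against 11.1 and 19.1 CPM in immature cDC2 (log2 fold change 4.52, SE 0.23). Clec10a had 265 and 289 CPM in pDC, against 29.95 and 17.4 CPM in immature cDC2 (3.37, SE 0.26), and Clec12a 517 and 375 CPM, against 59.7 and 74.2 CPM (2.56, SE 0.15). For these 3 genes pDC were the highest of all classes. The first gate's Clec10a difference of 2.62 did not pass in DESeq2 (2.54, adjusted p 0.205).

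Cd209a was lower in pDC, at 205 and 101 CPM against 248 and 206 CPM in immature cDC2 (log2 fold change -0.73, SE 0.18), where the higher pDC value lay just under the lower cDC2 value. Clec7a had 23.4 and 18.4 CPM in pDC, against 369 and 444 CPM in immature cDC2 (-4.45, SE 0.27). Clec4n and Clec4a4 had 0 UMIs in these pDC and were at least 5.44-fold lower and at least 8.42-fold lower than in immature cDC2, and Clec4a2 had 3 UMIs. Cd207 had 10 UMIs in pDC, all in library 1, of which 1 cell held 80.0%. Mgl2, which was not tested, had 8 and 3 UMIs in these pDC. Its mean over the libraries was 14.99 CPM, against 8.29 CPM in Cd209a-positive immature cDC2. Surface CD301b gave 0.123 and 0.159 UMIs per cell in first-gate pDC, under the highest isotype control at 0.321 and 0.301. CD301a protein reached 20.5 and 17.6 UMIs per cell in pDC and CD371 10.4 and 7.66, against 5.03 and 3.76 and 2.12 and 2.02 in immature cDC2. The cDC1 marker list stayed high in these pDC, at a summed 4762 and 4516 CPM against 1078 and 1149 CPM in immature cDC2, and its part in these values was not tested.

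In the stricter gate, monocytes carried Clec7a, Clec4a2, Clec4n and Clec12a and had little Cd209a or Clec4a4. Monocytes of the first gate averaged 100 CPM of Cd209a and 22.4 CPM of Clec4a4 over the libraries. With the first gate 7 of 9 tested genes passed (8.96% of all genes), and with the stricter gate 4 (16.8%), 2 higher and 2 lower. In the stricter gate Clec12a had 208 and 235 CPM in monocytes, against 59.7 and 74.2 CPM in immature cDC2 (log2 fold change 1.504, SE 0.26, edgeR adjusted p 4.1e-05). Clec4n had 69.2 and 73.5 CPM in monocytes, against 25.7 and 20.4 CPM in immature cDC2 (1.41, SE 0.49, edgeR adjusted p 0.0417), but from 8 and 10 UMIs of which 1 cell held 75.0% and 40%. Cd209a had 17.3 and 0 CPM in monocytes, from 2 UMIs, and Clec4a4 1 UMI. Clec7a had 639.8 and 662 CPM in monocytes, against 369 and 444 CPM in immature cDC2 (0.46, SE 0.16, edgeR adjusted p 0.0526). Its direction depended on the settings. The first gate gave -0.25 (edgeR adjusted p 0.213). With that gate Clec7a passed as lower with a 4-fold lineage gate (-0.42, edgeR adjusted p 0.0101) and with doublets kept (-0.38, 0.0189). It passed as higher in thinned cells (0.64, 0.00102). Clec4a2 had 173 and 132 CPM in monocytes, against 125 and 119.9 CPM in immature cDC2 (0.08, SE 0.26). These cells were shallow, with median depths of 2687 and 2095 UMIs.

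Ordered by level, Clec7a ran from intermediate cDC2, stricter-gate monocytes and Cd209a-positive immature cDC2, whose library ranges overlapped, to Cd209a-negative immature cDC2. Mature cDC2 and mature cDC1 came next and overlapped, with mature cDC1 the higher in library 2. Below them lay intermediate cDC1, then pDC and then immature cDC1. Clec12a ran from pDC through monocytes to intermediate and mature cDC1, which overlapped, then to immature cDC1 just below them and to the cDC2 classes. Cd209a was highest in immature cDC2, and pDC and intermediate cDC2 overlapped below them. These orders describe both libraries and are not tests.

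Single cells varied in how many of the 10 receptors they showed. At 3000 UMIs, immature cDC2 had a mean of 1.36 and 1.39 receptors detected per cell, and 15.8% and 16.9% of them showed at least 3. Leaving out Cd209a, which made the split, Cd209a-positive cells showed 1.35 and 1.45, against 0.891 and 0.967 in Cd209a-negative cells. Mature cDC2 showed 0.404 and 0.474, and mature cDC1 0.531 and 0.683 against 0.468 and 0.432 in immature cDC1. T cells showed 0.0440 and 0.0294.

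Clec4a4 and Clec10a were not seen together in immature cDC2. Of 86 and 109 cells with a Clec4a4 UMI 0 had Clec10a, against 4.41% and 3.46% of cells without Clec4a4. A Clec12a UMI was found in 2.33% and 8.26% of cells with Clec4a4, against 14.1% and 16.1% of cells without. Clec4n was found in 9.97% and 7.94% of cells with a Clec7a UMI, against 3.41% and 3.11% of those without. These shares are descriptions of sparse counts and were not tested.

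Profiles were compared across 20 class-by-library points, which share libraries and depth within a class. The points included T cells, and pDC and monocytes from the first gates, which let in cells with cDC1 markers. Among 12110 genes, those with the most similar profiles were ranked by Pearson r of log2(CPM + 10). For Clec7a they were Trps1 (0.941), Ccrl2 (0.937) and Abhd12 (0.935), and for Clec4n Mmp12 (0.976), Gm9733 (0.967) and Clec4a2 (0.964). Clec4a2 was nearest to Ifitm6 (0.987), Clec4a4 to Sirpb1a (0.992) and Tgm2 (0.990), and Clec12a to Rnh1 (0.947). Cd209a was nearest to Cx3cr1 (0.873). Cd209a-positive and Cd209a-negative immature cDC2 were separate points, so the gate itself set part of the Cd209a profile. The surface CX3CR1 difference comes from the same split and is no separate support. Cd209d was nearest to Lifr (0.960) and Slamf9 (0.947), and Clec10a to Cd209d (0.947) and Slamf9 (0.932), and Cd207 reached at most 0.872, with Gm10848. Mgl2 had too few counts for this.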

How the data were processed

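Single-cell RNA and antibody UMI counts were deposited by the authors as one aggregated matrix, unnormalized whole numbers per gene or antibody and cell; it was made with Cell Ranger 3.1.0, per the file headers, and STAR, Seurat 3.1.4 and mm10 are named in the submitters' processing notes. The 2 libraries were told apart by barcode suffix, and no label ties a suffix to a replicate number. Cells with at least 500 genes, at least 1000 UMIs and under 10% mitochondrial UMIs were kept, and doublets called with scanpy 1.11.5 (546 and 1064 cells) were removed. For each class, UMIs were added up within a library, and the sums went into edgeR 4.0.16 in R 4.3.3 (quasi-likelihood test, TMM, low-count filter, library as a block because the classes of a library share its cells, two-sided, Benjamini-Hochberg adjustment over all genes, threshold 0.05). Genes used in the gates are not reported as results. Intervals and floors cover counting error only, and a count of 0 was given a floor of 3 counts over the group. Alternatives were DESeq2 1.42.0, other gates, filters and scalings, thinning, no block, and leaving out each library. All 10 receptors are named, with up to 4 genes per list and comparison by size of change among those that passed, 3 genes of like profile each, and up to 6 further antibodies. The receptors and gene lists were chosen with earlier results of these data known.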

Additional observations from a re-analysis of the deposited data

Results flagged for a closer look

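The next 2 results stood out because the maturity effect differed between the lineages by a test of the difference itself. For Clec7a the effect in cDC2 minus that in cDC1 was -4.63 (log2), lower in mature than in immature cDC2 and higher in mature than in immature cDC1, in both libraries. For Clec4n the fitted value was -12.26 (log2), but mature cDC2 had 0 UMIs and mature cDC1 3, so the value depends on the model's prior count and is no measure of size. Its call was lost under 4 alternatives, with edgeR adjusted p from 0.0813 to 0.241.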

How the results depend on the processing

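Of 651 single values with a test under an alternative, 606 kept their direction and their side of the threshold. Of the rest, 28 no longer passed, 8 passed only under the alternative and 9 changed sign, and the causes were not tested. Receptors with at most 3 UMIs in a class compared are left out of these values and of those with 1 library left out. Calls lost there are thus not among the 28, such as Cd209d and Clec10a in mature against immature cDC2 (4 alternatives each). With 1 library left out, 55 of 106 values moved by less than the spread, and 2, neither past the threshold, changed sign. These were Clec7a in mature cDC2 against mature cDC1 (-0.28 without library 1) and surface CD207 in the Cd209a split (0.12 without library 2). The other sign changes were Clec12a in mature against immature cDC2 (0.024 with at least 6 XCR1 and CD172a UMIs), Clec7a in mature cDC2 against mature cDC1 (-0.37 thinned, -0.55 with mature cells at 6 Ccr7 and 6 Fscn1 UMIs), Cd207 in the Cd209a split (1.405 with a 4-fold lineage gate), and, in monocytes, Clec7a (0.64 thinned, 0.46 with the stricter gates), Clec4n (0.66 thinned, 1.41 stricter) and Clec4a2 (0.078 stricter). The stricter gates and the isotype scaling without IgG1_Rat_l were chosen after seeing the data. Counts of receptors that passed moved as follows: mature against immature cDC1, 1 thinned (of 3); mature against immature cDC2, 4 with a 4-fold gate, 4 with at least 6 UMIs and 3 thinned (of 7); the interaction, 1 under each of those gates, thinned or with 6 Ccr7 and Fscn1 UMIs (of 2); mature cDC2 against mature cDC1, 1 with at least 6 UMIs, thinned or with 6 Ccr7 and Fscn1 UMIs and 4 with doublets kept (of 2); monocytes, 1 thinned, 4 with the stricter gates and 4 in DESeq2 (of 7). Antibodies between the lineages numbered 45 without the replicate block and 44 scaled to isotype UMIs (of 68). Those in the Cd209a split numbered 5 with at least 6 UMIs, 3 thinned, 23 with Cd209a-positive at 2 UMIs, 3 without the replicate block, 4 scaled to isotypes and 3 without IgG1_Rat_l (of 10). Without the replicate block the receptor counts were 9 between immature lineages, 3 and 7 for maturity in cDC1 and cDC2, 5 in the split and 6 of 7 in monocytes. Few mature cells and UMIs limit the mature comparisons.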
